A study of Mus musculus with 18 samples.

Results

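Embryoid bodies (EB) of the mouse embryonic stem cell (ESC) line MES3 after 7 days of differentiation were compared with cells of adult mouse tissue. The comparison took 6 of the 18 arrays of the series, chosen by their titles and by the array product (UniSet Mouse 20K I): 4 arrays of 7-day EB, which are 2 samples on 2 arrays each, and 2 arrays of adult tissue, each counted as 1 sample. Per the labels, MES3 came from a C57BLxCBA embryo's inner cell mass and was grown on inactivated mouse embryonic fibroblasts with LIF. The EB formed spontaneously from excised colony pieces on low-adhesion plates, without LIF and without b-mercaptoethanol. All EB samples thus come from 1 line. The adult samples are labelled only as adult tissue cells, and the labels used here name no organ, strain or age for them. Whether replicates came from separate cultures or animals is not given in the labels, so each p-value measures only sample-to-sample spread, which may be technical.

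An EB is an aggregate of differentiating stem cells. After withdrawal of LIF, the cytokine that sustains mouse ESC, cells of such an aggregate leave pluripotency at different times and begin to form an outer endoderm layer, mesoderm and ectoderm. Pluripotent cells cycle fast and depend on the transcription factors Pou5f1 and Sox2, whereas adult organs are made largely of cells that have stopped dividing and express the genes of their own function.

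Intensities were quantile-normalized across the 12 arrays of the product and are given as log2 values, on which 1.83 is the floor set at the median negative control. A gene was tested if its probe was above background on all 4 arrays of 7-day EB or on both arrays of adult tissue. The 7-day EB arrays had 34.8 to 36.2% of gene probes above background, and the adult arrays 57.8% and 52.6%. Their median raw intensities were 9.24 to 10.89 against 29.86 and 22.09. Array values correlated at r = 0.941 to 0.961 among the 7-day arrays, at 0.973 between the adult arrays, and at 0.68 to 0.695 between the groups. The adult arrays were scanned on another day than all EB arrays, so scan day and group cannot be told apart.

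The 7-day EB and the adult samples differed in most genes. Of 10052 genes tested with limma, 6230 (62%) passed an adjusted p of 0.05. Of these, 2959 (29.4% of those tested) were higher in 7-day EB and 3271 (32.5%) were lower, and the median difference over all tested genes was -0.04. Differences of at least 2-fold were found in 2482 of the higher and 2911 of the lower genes. The split depended on the scaling: 47.5% of the called genes were higher in EB here, against 32.5% when each array was scaled to its median probe and 32.8% with the authors' normalized column, settings in which the median of all genes moved to -0.5 and -0.49. It was 30.4% with the deposited matrix. Among probes above background in both groups it was 74%, a filter that removes genes undetected in either group.

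**Figure D1:**
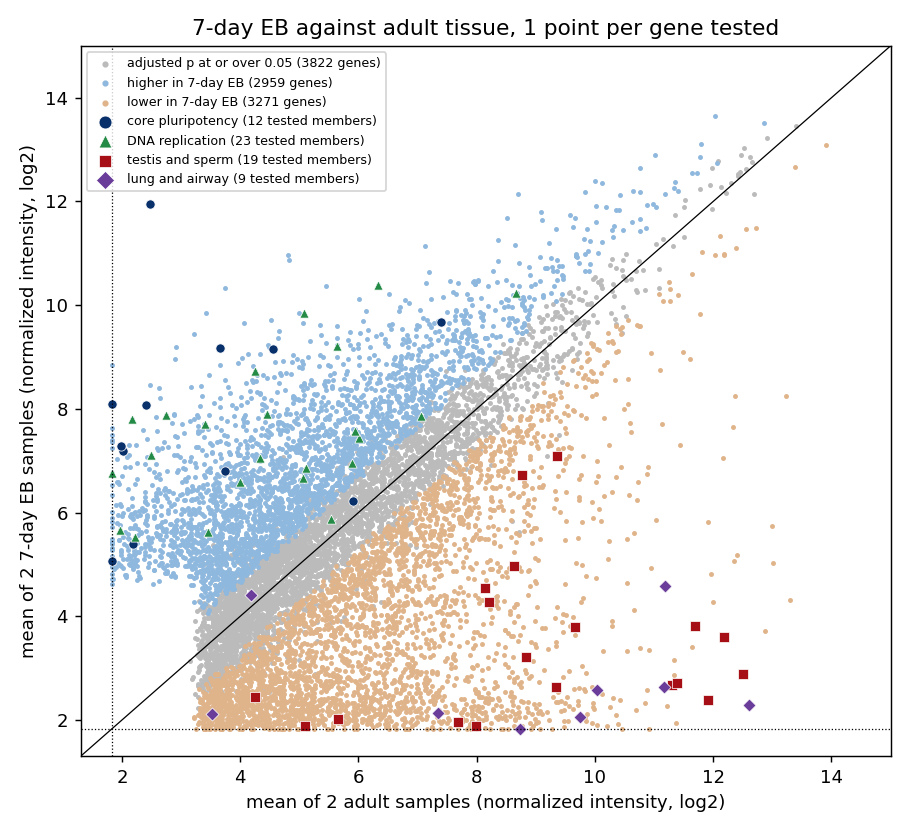
Mean normalized intensity (log2) of the 2 adult samples (x axis) and of the 2 7-day EB samples (y axis) for the 10052 genes tested, each gene 1 point coloured by its call. Dotted lines mark the floor at 1.83, the diagonal marks equal levels, and larger symbols are tested members of 4 gene lists. Core pluripotency and replication genes lie above the diagonal, and all 19 testis genes lie below it.

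Many of the differences are between signal and no signal. Of the genes lower in EB, 2067 were below background on all 4 EB arrays and another 410 on some of them. For 987 of the 2067 the difference was at least 2-fold when measured against the lowest signal that passed as above background, and for 498 that bound did not exceed 1. Such bounds are given below as "at least N-fold". Where the value of an undetected spot was above that lowest signal, its own value was used. The bounds are nominal, because the limit of detection varied between spots. Flt1, for example, was below background at 3.02 and 3.43 on the adult arrays, whose lowest passing signals were 2.94 and 3.2. A true difference can therefore be smaller than its bound. Of the genes higher in EB, 327 were below background on both adult arrays, and all 327 had a bound of at least 2-fold. Replicate 3 of 7-day EB, on another array product and not in the fit, was also read by probe name. A probe missing from that product was counted as above background, so the shares that follow are upper limits on detection. They were 99.4% of the genes higher in EB and 64.1% of the 2067 genes that the 4 EB arrays did not detect. Over all genes tested the share was 91.7%. No signal on the 4 EB arrays is read here only as a level below their detection.

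Pluripotency genes were higher in EB nearly throughout. Of 12 tested genes of the core pluripotency list, 11 were higher in 7-day EB and none was lower, with a median difference of 4.89 against -0.04 over all genes (4.18 with undetected genes at their bound). The 91.7% higher compares with 29.4% over all genes. The summed intensity of the 12 probes was 5400 and 9390 in the EB samples against 346 and 278 in the adult samples. Since these are bulk samples, more cells of a type and more RNA per cell cannot be told apart. The list was written with earlier results of these data known, and all 12 passed the filter through the EB arrays, 5 of them through the adult arrays as well.

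Dppa5a, an RNA-binding protein of pluripotent cells, gave 11.62 and 12.30 in the EB samples and 2.09 and 2.87 in the adult samples. This was at least 475-fold higher (log2 difference 9.48 ± 0.40, SE, n = 2 samples per group, adjusted p = 5.11e-06), since neither adult array was above background. Pou5f1 (Oct4), the central pluripotency factor, gave 8.59 and 9.73 against 4.72 and 4.39, a difference of 4.61 ± 0.38 (adjusted p = 5.97e-05). Both EB samples lay far above both adult samples for each gene, and Pou5f1 was above background in the adult samples too. Sox2, its partner on DNA, gave 4.6 and 5.54 against the floor in both adult samples (at least 4.02-fold, adjusted p = 0.000149). Sall4, a zinc finger factor of the same network, gave 7.10 and 7.28 against 2.14 and 1.90 (at least 17.4-fold). Zfp42 (Rex1), a classical marker of undifferentiated ESC, gave 6.57 and 8.02 against 1.88 and 2.10 (at least 18.7-fold). Utf1, a chromatin-bound protein of pluripotent cells, was at least 32.1-fold higher, and Dppa3 (Stella), which protects maternal methylation in the early embryo, at least 32.8-fold. Fbxo15, a target of Pou5f1 and Sox2, gave 8.55 and 9.80 against 3.87 and 3.45.

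Tdgf1 (Cripto), a co-receptor of Nodal, was the 1 tested member of the core list that did not pass. It gave 6.0 and 6.45 in EB against 6.25 and 5.56 in adult tissue (difference 0.32, 95% interval -0.50 to 1.15, adjusted p = 0.449), and its groups overlapped. Of the naive pluripotency list, 4 of 6 tested genes were higher (66.7%, against 29.4% over all genes). Klf2 rose by 2.10 and Tcl1, an activator of Akt signalling, by 3.52. Klf5 rose by 1.5 but did not pass with median scaling (0.78, adjusted p = 0.0517). Klf4 did not pass, at 7.53 and 7.56 against 8.09 and 8.0, but was called lower with median scaling (-1.25, adjusted p = 0.00242), the 75th percentile (-0.74, 0.0292), the authors' column (-1.24, 0.00252) and the deposited matrix (-1.01, 0.0404). This factor is also expressed in adult epithelia.

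Of 7 tested genes of the formative and primed epiblast, 3 were higher (42.9%, against 29.4% over all genes) and none was lower. Otx2, a homeobox factor of the epiblast and later of the forebrain, gave 6.71 and 8.09 against the floor in both adult samples (at least 20.2-fold, adjusted p = 8.52e-05). On the other array product it was below background on both arrays of EB replicate 3, so its presence in EB was not seen there. Dnmt3b, the de novo DNA methyltransferase of the epiblast, gave 9.36 and 9.24 against 5.40 and 4.97 (difference 4.11 ± 0.41). The related Dnmt3a gave 4.57 and 5.15 against 4.14 and 4.49 and did not pass (adjusted p = 0.134). Foxd3 was called at an adjusted p of 0.0361 and lost its call under 9 of the 19 alternatives. Among further genes of early development, Ooep, an oocyte and embryo protein, was at least 54.7-fold higher, and Mybl2, a cell cycle transcription factor abundant in ESC, at least 69.8-fold. Tdh, the threonine dehydrogenase on which mouse ESC depend, gave 10.54 and 11.22 against 4.77 and 4.90 (difference 6.04 ± 0.30).

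**Figure D2:**
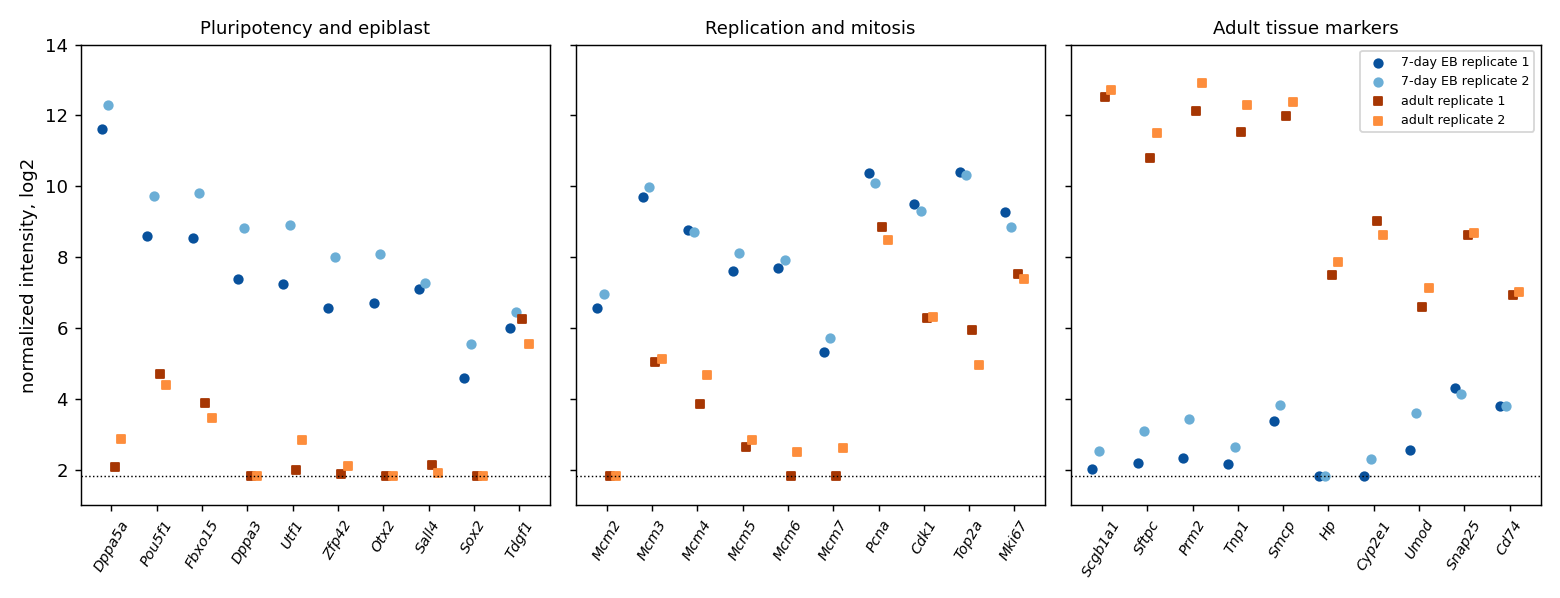
Normalized intensity (log2, y axis) of 30 genes in each of the 2 7-day EB samples (circles) and the 2 adult samples (squares), in 3 groups of 10, with the floor of 1.83 as a dotted line. The EB samples lie above the adult samples for the first and second group except for Tdgf1, where the groups overlap, and below them for the third.

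Nearly all tested genes of replication were higher in EB. Of 28 replication genes with a probe 23 were tested, and of 24 mitosis genes 21. Among those not tested, Pola1, Rrm1, Gins2 and Plk1 were above background on no array of either group. Of 23 tested replication genes 22 were higher, with a median of 3.31 (2.60 with bounds), and of 21 mitosis genes all 21 were higher, with a median of 2.91. The shares higher were 95.7% and 100%, against 29.4% over all genes. Of the tested members 22 and 21 were above background on all 4 EB arrays, and 15 and 18 on both adult arrays. All members of the Mcm2-7 helicase, the ring that unwinds DNA at origins, were among the replication genes called higher. Mcm3 gave 9.70 and 9.98 in EB against 5.03 and 5.13 in adult tissue, a difference of 4.76 ± 0.24 (adjusted p = 7.92e-06). Mcm5 gave 7.62 and 8.13 against 2.65 and 2.84 (at least 28-fold). Mcm6 was at least 26.8-fold, Mcm2 at least 13-fold and Mcm7 at least 5.52-fold higher, and Mcm4 rose by 4.47. For each of the 6 genes the lower EB sample was above the higher adult sample. Over all genes tested, the samples of the groups did not overlap in 82%, counting either direction. This separation alone therefore does not set the Mcm genes apart.

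Among other replication genes, Prim1, the catalytic primase subunit, rose by at least 16.5-fold. Pcna, the polymerase clamp, gave 10.37 and 10.09 against 8.86 and 8.49, a difference of 1.56 that did not pass with median scaling (0.77, adjusted p = 0.0577). In mitosis, Top2a, the topoisomerase that untangles chromosomes, gave 10.41 and 10.33 against 5.96 and 4.95. Mad2l1, a spindle checkpoint protein, rose by 4.39, Cenpa, the centromeric histone, by 4.31 and Ccnb1 (cyclin B1) by 4.70. Cdk1, the mitotic kinase, rose by 3.10 and Mki67, the proliferation marker, by 1.61.

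RefSeq promoter windows (250 bases before to 50 after the gene start, build GRCm38.p6) were at hand for 5 of the 6 Mcm genes. The motif TTTNNCGC, a form of the site bound by E2F factors, which drive S phase genes, was searched on both strands. It was present in 4 of the 5 windows and in 5.27% of all 27025 windows of the table. The window of Mcm2 held no match, which says only that these letters are not in it. The 4 windows with a match are shown, with matches in capitals, overlapping matches as 1 run. All 5 genes, Mcm2 included, were higher in EB.
Mcm3 (chr1:20820263-20820562, minus strand): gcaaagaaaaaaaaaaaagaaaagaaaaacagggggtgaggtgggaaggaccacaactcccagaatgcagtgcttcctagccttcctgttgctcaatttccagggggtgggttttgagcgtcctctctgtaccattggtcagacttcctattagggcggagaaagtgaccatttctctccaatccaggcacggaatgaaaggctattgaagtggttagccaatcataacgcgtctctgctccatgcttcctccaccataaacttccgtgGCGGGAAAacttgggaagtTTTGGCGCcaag
Mcm5 (chr8:75109259-75109558, plus strand): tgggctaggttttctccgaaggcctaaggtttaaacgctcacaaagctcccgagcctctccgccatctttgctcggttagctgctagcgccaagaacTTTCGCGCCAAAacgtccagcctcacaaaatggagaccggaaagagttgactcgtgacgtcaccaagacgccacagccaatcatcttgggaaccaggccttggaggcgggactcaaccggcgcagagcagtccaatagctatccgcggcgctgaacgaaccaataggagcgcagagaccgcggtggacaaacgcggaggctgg
Mcm6 (chr1:128359656-128359955, minus strand): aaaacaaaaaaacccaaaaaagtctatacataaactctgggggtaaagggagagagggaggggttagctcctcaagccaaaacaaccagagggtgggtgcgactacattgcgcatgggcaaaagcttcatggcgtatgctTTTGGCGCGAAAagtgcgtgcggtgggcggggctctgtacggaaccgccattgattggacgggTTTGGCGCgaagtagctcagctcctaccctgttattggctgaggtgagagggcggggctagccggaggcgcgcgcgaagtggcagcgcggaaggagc
Mcm7 (chr5:138171834-138172133, minus strand): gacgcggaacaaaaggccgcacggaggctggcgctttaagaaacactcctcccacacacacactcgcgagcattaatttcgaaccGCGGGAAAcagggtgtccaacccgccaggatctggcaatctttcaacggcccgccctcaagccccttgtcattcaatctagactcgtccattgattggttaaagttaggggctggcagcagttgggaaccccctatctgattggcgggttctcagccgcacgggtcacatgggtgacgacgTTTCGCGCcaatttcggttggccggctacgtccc
Mcm6 held 3 matches and each of the others 2. A match is a description of the sequence. Binding was not measured.

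Genes of growth followed the same direction. Of 13 tested genes of ribosome biogenesis 11 were higher, of 26 cytosolic ribosomal proteins 21, of 16 glycolysis genes 13 and of 14 genes of amino acid response and one-carbon metabolism 9, and none of these was lower. In that order the shares higher were 84.6%, 80.8%, 81.2% and 64.3%, against 29.4% over all genes. Ncl (nucleolin), the major nucleolar protein, gave 11.13 and 11.14 against 7.07 and 7.17. Nop58, a core protein of the ribosomal RNA methylation complex, was at least 9.99-fold higher. The median over the ribosomal proteins was 1.45 (1.01 with median scaling), and Rpl3 rose by 3.44, Rpl27 by 2.89 and Rps3 by 2.70. In glycolysis, Pgk1 gave 10.16 and 10.08 against 6.10 and 5.93. Hk2, the hexokinase of growing cells, rose by 3.53 and Pfkl, a phosphofructokinase, was at least 19.5-fold higher. Gapdh and Eno1 rose by only 0.67 and 0.97. Of the 16 glycolysis genes 12 were above background on both adult arrays, and Pkm, Tpi1 and Pfkl were below background there.

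The respiratory chain did not share this pattern. Of its 26 tested genes 4 were higher and 7 lower, with a median of -0.17 (-0.88 with median scaling). Sdha, a subunit of succinate dehydrogenase, gave 9.71 and 9.52 against 9.86 and 9.78. Both shares lie below those of all genes tested, which were 29.4% and 32.5%.

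Some large differences concern genes that most cells use, each measured by a probe with little or no signal on the adult arrays. Tubb5, a tubulin, gave 10.26 and 10.38 against 3.49 and 3.98 (difference 6.59 ± 0.27). Eif4a1, the helicase of translation initiation, rose by 6.15 and Hspd1, the mitochondrial chaperonin, by 6.43. Pkm, Tpi1 and Hnrnpa1, picked after their values were seen, were below background on both adult arrays. Pkm, the pyruvate kinase of most tissues, gave 2.17 and 2.98 there against 7.54 and 8.15 in EB. Yet Gapdh gave 11.90 and 12.22 in adult tissue against 12.66 and 12.81 in EB, and Actb 10.30 and 9.94 against 11.48 and 10.97. Where a gene had 2 or more tested probes, its brightest pair pointed the same way in 342 of 512 genes. Of the 211 genes with both probes called, 181 had the same direction and 30 opposite ones. The part of probe choice or of the array batch in these differences was not tested.

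Silencing and chromatin genes were mostly higher in EB, 9 of 11 tested with none lower and a median of 2.28. The 81.8% higher compares with 29.4% over all genes. Suz12, a subunit of Polycomb repressive complex 2, gave 8.80 and 9.0 against 5.09 and 4.68, and Hdac2, a histone deacetylase, rose by 3.77. Trim28, the co-repressor that silences retroelements, rose by 2.28, but did not pass with the deposited matrix (0.88, adjusted p = 0.122). Of 9 tested genes of simple epithelium and adhesion, 7 were higher and 1 was lower, or 77.8% and 11.1%, against 29.4% and 32.5% over all genes. Cdh1 (E-cadherin) gave 7.54 and 8.51 against 3.60 and 3.73, and Epcam rose by 3.20. Of 8 germ cell genes 3 were higher and 1 was lower, and the 37.5% higher is near the 29.4% over all genes. Kit, the receptor of stem cell factor, rose by 3.66 and Tex19.1, a germline and placental protein, by 3.69, while Ddx4 (Vasa), a germline RNA helicase abundant in testis, fell by 2.32.

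Endoderm and yolk sac genes gave no single direction. Of 32 genes with a probe 23 were tested, and 9 were higher and 2 lower. These are 39.1% and 8.7%, against 29.4% and 32.5% over all genes. The median was 0.16 and turned to -0.30 with median scaling. The higher ones held 4 chains of laminin and type IV collagen, which build the basement membrane under the outer endoderm layer. Sparc, a secreted matrix protein of the same list, did not pass (0.11, adjusted p = 0.861). Lama1 was at least 25.4-fold, Col4a2 at least 10.5-fold and Lamb1 at least 9.86-fold higher, and Col4a1 rose by 2.57. Rhox5, a homeobox gene of the X chromosome expressed in extraembryonic tissue, gave 8.59 and 9.33 against 2.07 and 3.73 (difference 6.06 ± 0.54). Its neighbour Rhox6 gave 8.44 and 6.57 against the floor in both adult samples (at least 21.6-fold). Cubn, an endocytic receptor of visceral endoderm and kidney, was at least 4.85-fold higher, and the lysosomal proteases Ctsz and Lgmn rose by 2.84 and 2.35.

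Most plasma protein genes of the same list did not pass the test. These genes mark visceral endoderm in the embryo and liver in the adult. Ttr (transthyretin) gave 8.97 and 5.21 in EB against 8.83 and 9.55 in adult tissue (difference -2.10, 95% interval -5.54 to 1.34, adjusted p = 0.249). It was called lower without EB replicate 1 (-3.98, adjusted p = 0.0443) and with the deposited matrix (-3.20, adjusted p = 0.0187). Apoa1 gave 8.30 and 5.98 against 7.43 and 7.73 (adjusted p = 0.695). Spink1, a trypsin inhibitor, and Rbp4, the retinol carrier, also did not pass, but Rbp4 was called higher without EB replicate 2 (2.48, adjusted p = 0.00412). For Apoa1, Spink1 and Rbp4, EB replicate 1 lay above both adult samples and EB replicate 2 below both. The 2 that were lower, Apoa2 and Fga (fibrinogen alpha), were below background on all 4 EB arrays, with bounds of 3.52-fold and 1.34-fold. Apoa2 lost its call without adult replicate 2 (adjusted p = 0.0794) and with first arrays only (0.072). Gata4, an endoderm and heart regulator, gave 5.06 and 4.63 against 5.10 and 4.56 (adjusted p = 0.961). Afp, the fetal albumin relative, was above background on 3 of the 4 EB arrays and neither adult array and so was not tested.

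The 2 EB samples themselves differed in many genes. They differed by more than 1 on the log2 scale in 808 genes (8.04%), against 426 (4.25%) for the adult samples. In the core pluripotency list, both arrays of replicate 2 were above both arrays of replicate 1 in 11 of 12 tested genes. In the endoderm list both arrays of replicate 1 were above those of replicate 2 in 17 of 23, and the reverse held in 3. Over all 10052 genes these counts were 2615 for replicate 1 and 2914 for replicate 2. Replicate 2 was also above replicate 1 in 11 of 13 genes of ribosome biogenesis, where the reverse held in none. It was above in 14 of 23 replication genes (reverse in 2) and 14 of 26 respiratory chain genes (reverse in 3). This direction was therefore not particular to the pluripotency genes. The summed intensity of the endoderm probes was 8710 in replicate 1 and 4020 in replicate 2, against 4230 and 4980 in the adult samples. With 1 sample on each side, this difference has no test.

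**Figure D3:**
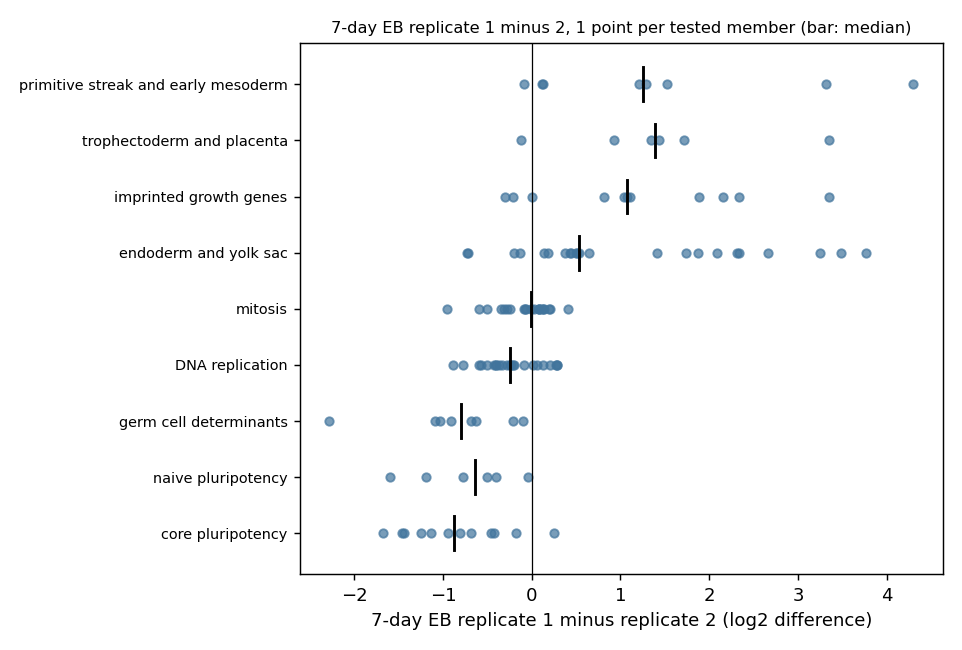
Difference between 7-day EB replicate 1 and replicate 2 (log2, x axis) for the tested members of 9 gene lists, each gene 1 point and the bar the median of its list. Core pluripotency, naive pluripotency and germ cell genes lie mostly below 0, and replication and mitosis genes stay within 1 of 0. Endoderm, imprinted, trophectoderm and primitive streak genes extend above 3. The imprinted and trophectoderm lists do so only through Igf2 (3.35), a member of both.

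In the imprinted list both arrays of EB replicate 1 were above those of replicate 2 in 8 of 11 tested genes and the reverse held in 2, and in the primitive streak list these counts were 5 and 0 of 8. Of 11 tested imprinted growth genes 5 were higher in EB than in adult tissue and 2 lower. These are 45.5% and 18.2%, against 29.4% and 32.5% over all genes. Igf2, the fetal growth factor, gave 10.30 and 6.95 against 4.37 and 4.79 (difference 4.04 ± 1.14, adjusted p = 0.0173). Without EB replicate 1 it was 2.37 and did not pass (adjusted p = 0.0679), and it did not pass without either adult sample. Phlda2, a placental growth suppressor, gave 9.59 and 8.52 against 4.11 and 4.14. Igf2r, the receptor that clears Igf2, rose by 2.91 and Mest by 3.38, a call that ended without adult replicate 2 (adjusted p = 0.0532). Grb10, a growth factor receptor adaptor, fell by 1.83 and lost its call without EB replicate 2 (adjusted p = 0.102) and without either adult sample. Meg3, a noncoding RNA expressed in adult brain and pituitary, was below background on all 4 EB arrays and at least 2.26-fold lower.

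Of 8 tested primitive streak and early mesoderm genes 1 was higher and 3 were lower, and the 37.5% lower is near the 32.5% over all genes. Kdr, the VEGF receptor of blood and vessel precursors, gave 6.22 and 1.92 against 4.68 and 5.22 and did not pass (adjusted p = 0.537). Without EB replicate 2 it was higher by 1.27 (adjusted p = 0.0228), and without EB replicate 1 lower, at -3.03 (adjusted p = 0.000633). Mesp1, a mesoderm regulator measured by 1 probe, gave 2.52 and 2.39 against 9.18 and 9.40. It was below background on all 4 EB arrays and at least 32-fold lower. Cdx2, Eomes and Gata6 were below background on every array of both groups and were not tested. Of 9 tested early neural genes 3 were higher and 1 was lower, or 33.3% and 11.1%, against 29.4% and 32.5% over all genes. One of the 3, Dlx5, was below background on all 4 EB arrays. Crabp1, a retinoic acid binding protein, rose by 3.06. Sox11, a factor of neural precursors, rose by 2.38, but lost the call without EB replicate 1 (1.27, adjusted p = 0.109) and without either adult sample. Nes (nestin) did not pass, at 5.34 and 5.37 against 4.95 and 5.49.

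**Figure D4:**
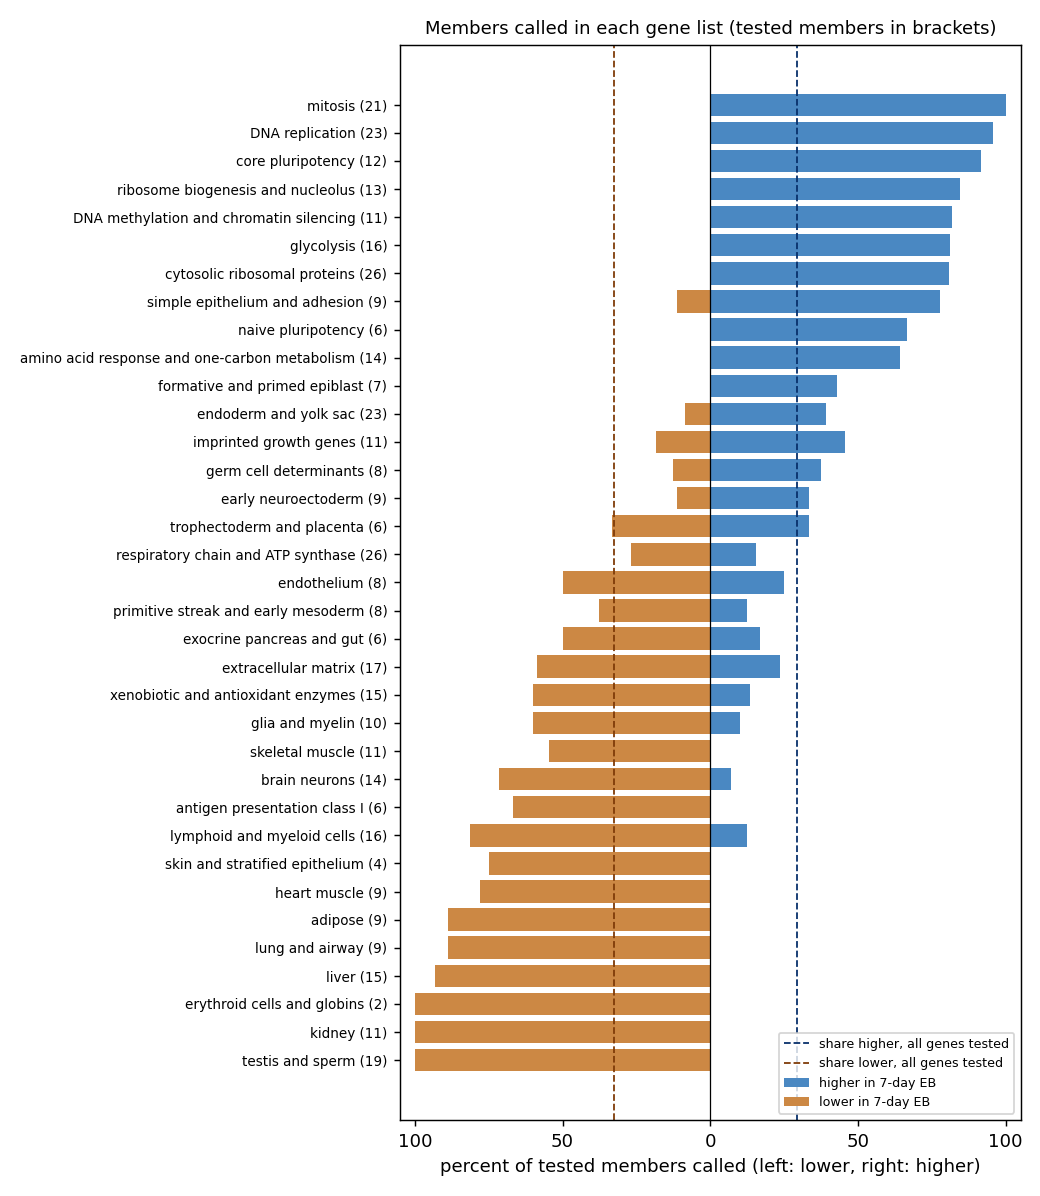
Percent of tested members of each of 35 gene lists called higher (to the right) or lower (to the left) in 7-day EB against adult tissue, with the number tested in brackets. Dashed lines give the shares over all genes tested (29.4% and 32.5%). Mitosis, replication and core pluripotency stand at the top and testis, kidney, globins and liver at the bottom.

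On the adult side, markers of many organs were present at once. Among members tested, all 19 tested testis and sperm genes, 14 of 15 liver genes, all 11 kidney genes, 8 of 9 lung genes, 8 of 9 adipose genes, 13 of 16 genes of lymphoid and myeloid cells, 10 of 14 neuronal genes and 7 of 9 heart genes were lower in EB. Over all genes tested 32.5% were lower. The organ counts are a description, because most of the members tested passed the filter only through the adult arrays, where they are high. Above background on all 4 EB arrays were 2 of the 19 testis genes, 3 of the 14 neuronal genes, 2 each of the adipose and of the lymphoid and myeloid genes, 1 heart gene and none of the liver, kidney or lung genes. Members with a probe numbered 22 for testis, 19 for liver, 14 for kidney and 11 for lung. They numbered 10 for adipose, 25 for lymphoid and myeloid cells, 18 for neurons and 13 for heart. Those not tested were not above background on all arrays of either group. Among them, Cyp3a11 of liver, Slc12a1 of kidney and Myh6 of heart were at the floor in both adult samples. The median differences were -5.72 for testis (-3.93 with bounds), -6.90 for lung (-5.46), -3.78 for kidney (-2.53) and -3.16 for liver (-1.85). The summed intensity of the testis probes was 23400 and 32600 in the adult samples against 397 and 445 in EB, and that of the lung probes 12600 and 14600 against 69.6 and 90.1.

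Prm2, the protamine that packs sperm DNA, gave 12.12 and 12.91 in adult tissue against 2.33 and 3.43 in EB (at least 300-fold lower, adjusted p = 1.53e-05). Tnp1, the transition protein that precedes it, was at least 198-fold lower, H1f7, a spermatid linker histone, at least 135-fold. Smcp, a sperm mitochondrial protein, gave 11.98 and 12.38 against 3.38 and 3.82. Spata19, of sperm mitochondria, was at least 137-fold and Oaz3, the testis antizyme, at least 170-fold lower. All 6 were below background on all 4 EB arrays. On the other product, H1f7 and Spata19 were above background on neither array of EB replicate 3. Prm2, Tnp1, Smcp and Oaz3 were either above background on both of its arrays or had no probe there, which the reading does not separate. Tcte3, a dynein light chain of sperm, had signal in EB, at 5.25 and 6.23 against 12.91 and 13.09.
The promoter window of Prm2 is shown as that of the testis list gene with the largest bound, with its match to TATAAA (both strands searched, found in 14.2% of all windows and in 2 of 15 windows of tested testis genes) in capitals.
Prm2 (chr16:10792056-10792355, minus strand): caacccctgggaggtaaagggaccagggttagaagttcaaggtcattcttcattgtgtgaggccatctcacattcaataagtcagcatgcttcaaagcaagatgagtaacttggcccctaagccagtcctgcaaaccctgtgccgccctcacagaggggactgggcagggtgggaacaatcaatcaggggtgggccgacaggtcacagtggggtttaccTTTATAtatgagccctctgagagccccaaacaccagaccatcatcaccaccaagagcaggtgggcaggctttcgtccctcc
The Prm2 window held no TTTNNCGC.

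Among lung genes, Scgb1a1, the secretoglobin of airway club cells, gave 12.51 and 12.71 in adult tissue against 2.03 and 2.54 in EB (at least 321-fold lower, adjusted p = 3.43e-06). Sftpc, the surfactant protein of alveolar type II cells, was at least 117-fold lower and Bpifa1, an airway secretory protein, at least 21.8-fold. Neither Scgb1a1 nor Sftpc nor Bpifa1 was above background on any 7-day EB array of either product.

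Among liver genes, Cyp2e1, the ethanol-oxidizing cytochrome, gave 9.01 and 8.63 against 1.83 and 2.29 (at least 23.2-fold lower, adjusted p = 4.99e-06). Hp (haptoglobin), which binds free haemoglobin, was at least 10.5-fold lower. Alb (albumin), the most abundant product of the organ, gave 4.67 and 5.32 against the floor in both EB samples, and its bound was only 1.63-fold. In kidney, Umod (uromodulin), made by the thick ascending limb, was at least 5.93-fold, Cdh16 (kidney cadherin) at least 12.4-fold and Calb1, a calcium buffer of distal tubule and brain, at least 14-fold lower.

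Brain, immune and muscle genes were mostly lower where tested. Of 10 tested glial genes 6 were lower (60%) and 1 was higher (10%). Of 11 skeletal muscle genes 6 were lower (54.5%) and 5 did not pass. Over all genes 32.5% were lower and 29.4% higher. The tested members entered mainly through the adult arrays. There, 9 of the glial and 11 of the muscle genes were above background on both arrays, against 2 of each list on all 4 EB arrays. Snap25, a synaptic fusion protein, gave 4.31 and 4.15 in EB against 8.63 and 8.68 in adult tissue. Syp (synaptophysin) was at least 11.5-fold, S100b at least 7.85-fold and Mag, a myelin protein, at least 6.41-fold lower. Gfap, the astrocyte filament, did not pass, at 3.26 and 3.25 against 4.05 and 3.53, but was called lower with first arrays only (-1.03, adjusted p = 0.0227). Aldoc, a glycolytic enzyme of astrocytes and the 1 glial gene higher in EB, was at least 5.03-fold higher. Stmn2 was the 1 neuronal gene higher in EB, by 1.61. C1qb, a complement subunit of macrophages, was at least 11.5-fold lower, H2-Aa at least 7.78-fold and Cd74, the class II chaperone, at least 6.32-fold. The other way went Cd68, by 1.70, and Cd79a, by 0.73, both picked after their values were seen. In muscle, Tnnt2 (cardiac troponin T) was at least 3.39-fold, Pln (phospholamban) at least 5.73-fold and Pvalb (parvalbumin) at least 11.6-fold lower. Mb (myoglobin) fell by 3.79. Mylpf, a fast muscle myosin light chain, did not pass, at 6.28 and 7.17 against 6.10 and 6.02. Adipoq, the adipocyte hormone, was at least 37.7-fold lower and Krt5, the basal keratin, at least 11.2-fold.

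Matrix genes were mostly lower where tested. Of 17 tested 10 were lower and 4 higher, or 58.8% and 23.5%, against 32.5% and 29.4% over all genes. All 17 passed the filter through the adult arrays, and 4 of them through the EB arrays as well. Col1a1 (5.22 and 2.78 in EB against 2.56 and 3.05) and Col1a2 (4.82 and 2.77 against 2.32 and 3.25) were not tested. Both were above background on 2 of the 4 EB arrays and on neither adult array. Thbs1 and Thbs2 were above background on no array of either group. Col6a2, a chain of type VI collagen, gave 4.74 and 5.13 against 11.09 and 10.79 (difference -6.00 ± 0.42), and Mgp, the inhibitor of calcification, was at least 36.5-fold lower. Igfbp7, a secreted binding protein of vessels, fell by 7.29, and Aldh1a1, a retinaldehyde dehydrogenase, was at least 70.6-fold lower. The 4 higher were Ccn2 (3.66), Timp1 (2.63), Ccn1 (1.99) and Col5a1 (1.68), all picked after their values were seen. Col3a1 gave 7.30 in EB replicate 1 and 1.98 in replicate 2, against 10.62 and 10.48. Fibroblasts served as feeders of the ESC line, and their part in the EB values was not tested.

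Endothelial genes were split, with 4 of 8 lower and 2 higher, or 50% and 25%, against 32.5% and 29.4% over all genes. Ramp2 fell by 3.63. Emcn (endomucin) gave 1.93 and 2.00 against 3.76 and 3.95, a call with no bound above 1. Pecam1, an adhesion protein of endothelium and of mouse ESC, was higher in EB, at 5.11 and 5.61 against 2.08 in both adult samples (at least 4.91-fold). Of 8 erythroid and globin genes with a probe only 2 were tested, and both were lower. Globins are uncertain because their near-identical copies can share signal. Hba-a1 gave 6.83 and 3.23 against 13.18 and 12.84. For Hbb-y, the embryonic beta globin, the brightest probe gave 6.34 and 2.29 against 13.09 and 13.53, while another of its 3 probes gave 9.32 and 2.69 against 5.09 and 5.46. The latter was higher than adult tissue in EB replicate 1 only. Hba-x, the embryonic alpha-like globin, was not tested, at 8.29 and 2.37 in EB against the floor in both adult samples.

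Against 3-day EB, in the same fit, limma called none of the 10052 genes (0%) at an adjusted p of 0.05, although 707 had an unadjusted p under 0.05. Among the 707 were 232 of the 2959 genes higher and 270 of the 3271 genes lower in 7-day EB than in adult tissue. Both shares are close to that of the 707 in all 10052 genes. The contrasts share the 7-day samples, so their values are only set side by side. The fit did not pair 3-day with 7-day samples by replicate number. Dppa5a gave 11.50 and 12.20 at 3 days and Pou5f1 9.11 and 9.03, close to their 7-day values. Igf2 gave 7.09 and 4.47 at 3 days (difference 2.84 ± 1.14, adjusted p = 0.666). Rhox6 gave 5.05 and 3.50 (difference 3.22 ± 0.68, adjusted p = 0.607). Scgb1a1 and Prm2 stayed at 3.52 or below at 3 days, as they did at 7. Among the genes that differed from adult tissue, the count of called genes rose to 15 without 7-day replicate 2 and to 2 without 3-day replicate 2.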

How the data were processed

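The members of the comparison and the gene lists were chosen with earlier results of these data known. Total RNA was amplified linearly with biotin label and read with Cy5, per the labels' protocols. Per the file headers, version 4.1.0.29054 of the scanner software gave each spot a raw intensity. No background step is named there, but the deposited intensity has values below 0, so background had been subtracted, and no further correction was made. The authors' normalized intensity column is a median normalization of each array, per the file headers. The deposited matrix holds median-normalized intensities and differs from the exports for the adult arrays.

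Spots with the quality flags M, C or I were set aside. Of 19758 gene probes, 15786 had 1 gene symbol through RefSeq accession, platform table or description, 3923 had none and 49 had several; probes without a single symbol were tested and not named. Values of 12 arrays were quantile-normalized, raised to the median negative control (3.56), put on the log2 scale and averaged per sample. The brightest probe stood for its gene. Limma 3.58.1 in R 4.3.3 (lmFit, eBayes, Benjamini-Hochberg) was fitted on 7 samples (1 ESC, 2 each of 3-day EB, 7-day EB and adult), with 3 residual and 4.25 prior degrees of freedom. In 27 genes 1 or more samples were missing and were dropped from the fit. Precision is limited by how few arrays there are. The fit was tested on simulated data.

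Genes were named by rule: the 12 largest differences in each direction among called genes above background on every array with all samples moving the same way, the 8 largest bounds in each direction, up to 3 called members of the smallest p per list, and a fixed list; some are not reported here. Other list members named were chosen after their values were seen. The 35 lists hold 623 genes, of which 551 had a named probe and 420 were tested. Alternatives covered scaling, floor, filter, probes, arrays, replicates and a replicate block. A planned description of promoter CpG content was void, because 79.8% of the named genes tested had a promoter window, under the minimum of 80%.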

Additional observations from a re-analysis of the deposited data

How the results depend on the processing

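Of the 19 alternatives, 17 kept the numbers of called, higher and lower genes within 1.5 times; the filter on both groups gave 3285 called and 854 lower genes (fewer genes were tested) and the deposited matrix, added after seeing the data, 1638 higher genes. Leaving out 1 sample gave 5096 to 5632 called genes (2462 to 2668 higher, 2634 to 2964 lower), and against 3-day EB 0 to 15 genes that also differed from adult tissue. Replicate numbers did not pair 7-day EB with adult samples (r = 0.059 between the deviations of replicate 1 of each group). With the replicate block 6313 genes were called against adult tissue. Whether the numbers pair 3-day with 7-day EB samples was not tested. No scan batch term could be fitted, since each scan day of the comparison holds 1 group.

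With median scaling the medians of the endoderm list (-0.3) and the germ cell list (-0.29), and the values of Tdgf1 (-0.29), Gata4 (-0.4) and Nes (-0.37), turned negative. With the authors' column these were -0.3, -0.29, -0.28, -0.39 and -0.36 in that order. The deposited matrix gave -0.15 for endoderm, -0.18 for trophectoderm, -0.07 for neuroectoderm and -0.19 for imprinted genes, -0.68 for Tdgf1, -0.34 for Gata4 and -0.56 for Nes. Without a filter the medians of the primitive streak (0.13), exocrine pancreas (0.01) and erythroid (0.26) lists turned positive, as did the primitive streak list with the looser filter (0.26). With the filter on both groups, matrix genes (2.31) and lymphoid genes (1.22) did so, since it drops genes undetected in EB. Gata4 was -0.27 with first arrays and Hbb-y 0.73 with its dimmest probe. The causes of the other turns were not tested.

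Leaving out 1 sample at a time, the medians ranged from -0.18 to 1.69 for endoderm, from -0.17 to 1.48 for trophectoderm, from -1.64 to 0.83 for the primitive streak, from -0.1 to 0.8 for germ cell genes and from -0.08 to 0.4 for neuroectoderm. Rbp4 ranged from -0.77 to 2.48, Apoa1 from -1.6 to 0.72, Spink1 from -2.73 to 0.75, Kdr from -3.03 to 1.27, Gata4 from -0.25 to 0.29, Nes from -0.14 to 0.4 and Tdgf1 from -0.02 to 0.67. The low signal of the EB arrays limits what a call of lower can show, since 2067 of the 3271 rest on genes undetected there.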

Other observations

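Detoxification and antigen presentation genes were also measured. Of 15 tested xenobiotic and antioxidant enzymes 9 were lower in EB and 2 higher, with a median of -1.5. These are 60% and 13.3%, against 32.5% and 29.4% over all genes. All 15 passed the filter through the adult arrays, and 8 of them through the EB arrays as well. Gpx3, the secreted glutathione peroxidase, gave 7.87 and 6.75 in EB against 11.22 and 11.67 in adult tissue. Gsta4 and Ephx2 were the 2 higher, by 1.49 and 1.86. Of 6 tested genes of class I antigen presentation 4 were lower (66.7%, against 32.5% over all genes) and none was higher. All 6 passed the filter through the adult arrays, and 3 of them through the EB arrays as well. Among the lower ones, B2m, the common light chain, gave 9.14 and 8.80 against 11.19 and 12.01. H2-T23 was at least 3.45-fold lower.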
